A study of Mus musculus with 12 samples.

Results

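Mouse liver expression of 37 genes of DNA replication and S phase was followed on the arrays of a diet study. The list was given by name, from origin licensing to chromatin assembly behind the fork. No rule on measured values chose its members, but earlier results of these data were known when they were chosen. Of the 37 genes, 33 were measured, among 13901 measured genes and 21613 gene symbols that the array names. The animals were male C57BL/6NJcl mice, fed either CDAHFD, a high-fat diet (60 kcal%) of defined L-amino acids that lacks choline, holds 0.1% methionine and induces steatohepatitis, or CE-2 chow as the control diet. The 6 groups were CDAHFD and control at 1 week (mice aged 7 weeks), CDAHFD and control at 2 weeks (8 weeks of age) and CDAHFD and control at 6 weeks (12 weeks of age). Each group had 2 arrays of whole liver RNA. The labels do not say that the 2 arrays of a group came from separate mice, so p-values measure the spread between arrays, which may be technical. CE-2 is a breeding chow, and the labels name no diet matched to the CDAHFD in fat or amino acids.

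A cell copies its genome once per division. In G1 the origin recognition complex, with CDC6 and CDT1, loads the MCM2 to MCM7 helicase onto origins. In S phase CDC45 and GINS join the helicase, and primase and the polymerases copy both strands on a sliding clamp while ribonucleotide reductase and thymidine enzymes supply the nucleotides. E2F transcription factors and cyclin E drive many of these genes at the entry to S phase. The liver of an adult mouse is mostly quiescent and re-enters the cycle after injury or partial removal.

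Values are given per array, the first and then the second array of a group, as log2 spot intensities minus the 75th percentile of their own array, so 0 is the brightness of that percentile and 1 unit is a doubling. Intensities of different probes are not on a common scale, so levels are compared between arrays and never between genes. Differences are CDAHFD minus control within a week, relative to the median of all measured genes, which was 0.13, 0.06 and 0.04 before that shift. A gene was called at a Benjamini-Hochberg adjusted p under 0.05 in limma over all 13901 genes. The tests were of the differences before that shift, while the printed differences, also those between weeks, are after it. Orc6 at 1 week, for example, was tested at 0.52 and is printed as 0.39. Array signal moved with diet: 45.4% to 49.7% of probes were above background on the CDAHFD arrays, against 40.4% to 44.4% on the control arrays, and its part in these results was not tested. On the first control array at 1 week, 20 blocks of spots were dim and touched the probe of 1 of the 37 genes, Uhrf1. The arrays of 1 and 2 weeks shared 1 slide and 1 scan and those of 6 weeks another, so each diet comparison lies within a slide, while comparisons with week 6 cannot be told apart from the slide.

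Most of the replication genes that moved were higher on CDAHFD, at every week. At 1 week 17 of 33 rose and 1 fell, where 25.8% of all genes rose and 15.1% fell. At 2 weeks 20 rose and 2 fell, where 23.0% of all genes rose and 14.7% fell. At 6 weeks 13 rose and 2 fell, where 24.6% of all genes rose and 16.0% fell. The median difference of the 33 genes was 0.60 at 1 week, 0.91 at 2 weeks and 0.57 at 6 weeks, beside 0 for all genes. Both CDAHFD arrays were above both control arrays for 26 members at 1 week, 27 at 2 weeks and 20 at 6 weeks, where 45.3%, 39.8% and 38.6% of all genes were. Both CDAHFD arrays were below both control arrays for 3, 3 and 4 members, where 30.6%, 32.2% and 32.5% of all genes were.

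Averaged over the weeks, 25 of 33 members rose and 3 (Mcm10, Rfc5 and Tk1) fell, where 35.7% of all genes rose and 25.6% fell. The 10 genes that rose at all 3 weeks were Mcm2, Mcm3, Mcm4, Mcm5, Mcm6, Pcna, Pold1, Rrm1, Uhrf1 and Chaf1a. Another 5 (Cdt1, Prim1, Fen1, Ccne1 and Chaf1b) rose at 1 and 2 weeks only, 3 (Gins2, Lig1 and E2f1) at 2 and 6 weeks only, 2 (Orc6 and Pola1) at 1 week only and 2 (Pole and Rrm2) at 2 weeks only. Tk1 fell at all 3 weeks and Mcm10 at 2 and 6 weeks. The remaining 9 genes (Cdc6, Mcm7, Gins1, Prim2, Rfc3, Rfc4, Rfc5, Tyms and E2f2) passed at no week. A filter on dim probes kept a gene if both arrays of any 1 group were above background, and a gene can pass it through the group where it is high. Of the 33 genes, 28 were above background on all 12 arrays. With that stricter filter on all genes, 16, 18 and 10 of 28 rose and 1, 2 and 2 fell at 1, 2 and 6 weeks, where 24.4%, 20.9% and 21.6% of the 11402 genes kept rose and 17.7%, 17.4% and 18.4% fell.

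The median difference of these genes at 1 week was 0.60 with all arrays. It was 0.54 without the first CDAHFD array of that week, the lowest value when 1 array was left out. At 6 weeks the median difference was 0.57 with all arrays, 0.93 without the first CDAHFD array of that week and 0.16 without the second. The median difference at 6 weeks thus depended on which CDAHFD array was kept. Leaving out 1 array cannot tell which of them was unusual. The mean level of these genes was -2.80 on the first and -2.02 on the second CDAHFD array of 6 weeks. On the CDAHFD arrays of the earlier weeks it ranged from -2.29 to -1.94. The second array lay within that range and the first below it.

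**Figure D1:**
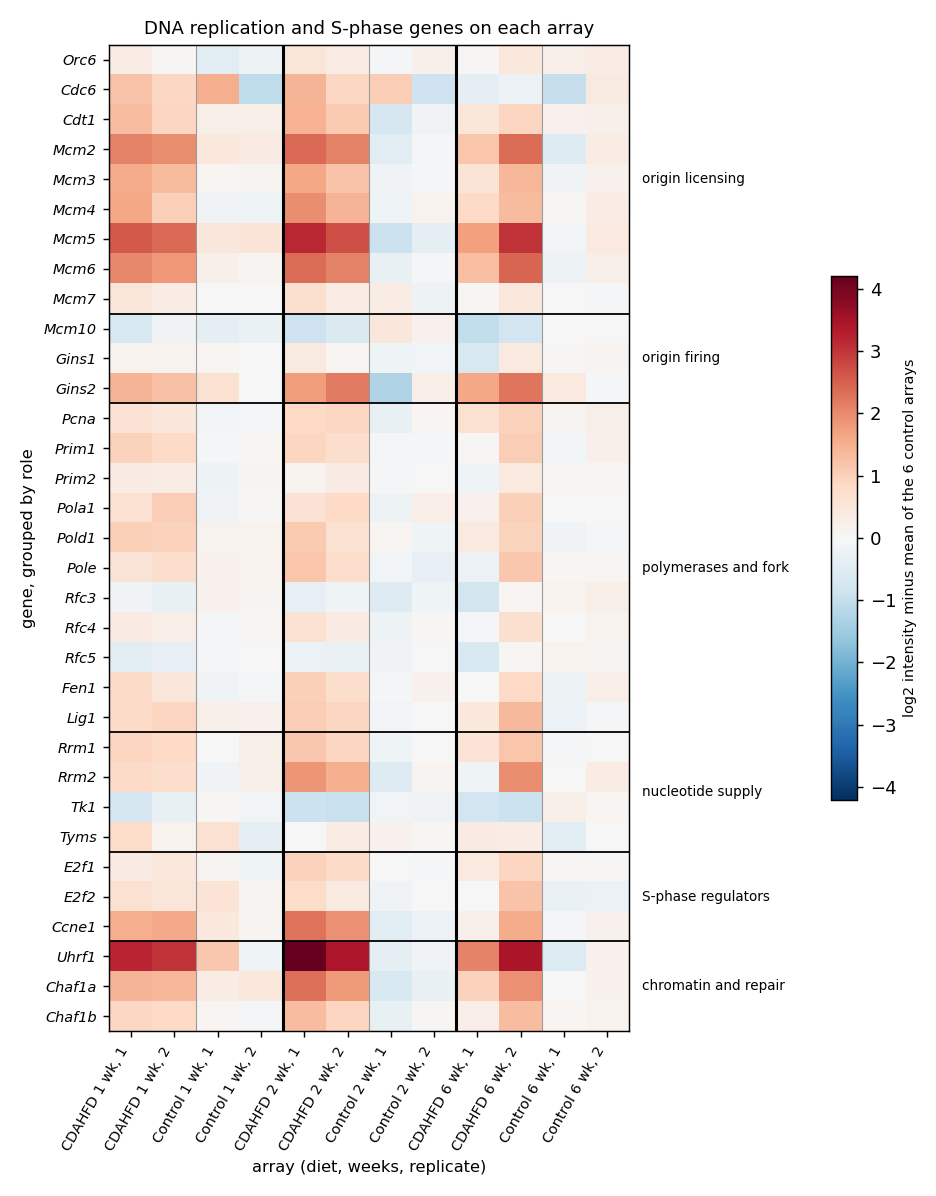
Each row is 1 of the 33 measured genes, grouped by role, and each column 1 array, ordered by week with the CDAHFD arrays left of the control arrays. Colour is log2 intensity minus the mean of the 6 control arrays, and most rows are above that mean on the CDAHFD arrays, while Mcm10 and Tk1 are below it at 2 and 6 weeks.

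**Figure D2:**
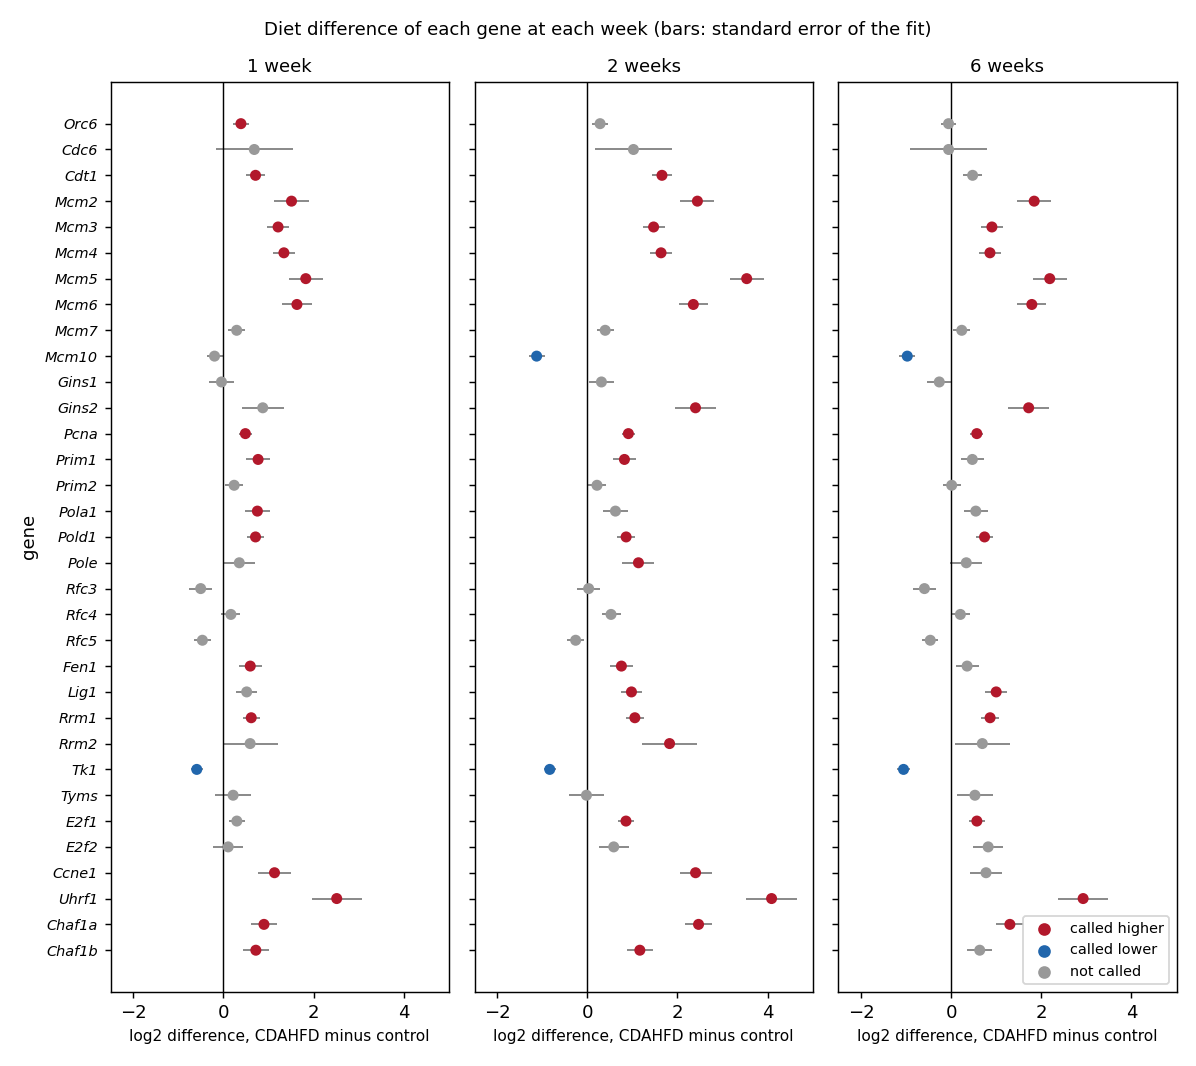
Points are the log2 differences of CDAHFD minus control for each gene at 1, 2 and 6 weeks, with the all-gene median at 0, standard errors as bars and the call as colour. Called genes number 17 higher and 1 lower at 1 week, 20 and 2 at 2 weeks, and 13 and 2 at 6 weeks.

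Promoters of 5 genes that rose, did not pass or fell are given here, since E2F factors are known to act on this gene group through sequence near the start site. RefSeq promoter windows (assembly GRCm38.p6, 250 bases before to 50 after the annotated start, read 5′ to 3′ on the gene's strand) were given for 31 of the 37 genes, 5 of them with several windows. The words TTTCCCGC, TTTCGCGC, TTTGCCGC and TTTGGCGC were searched on both strands, with overlapping matches counted separately, and capitals mark them. Mcm5, Mcm6 and Uhrf1 rose at all weeks, Mcm7 did not pass at any week and Tk1 fell at all weeks. For Mcm7 and Uhrf1 the window of 2 that holds a match is shown.
Mcm5, chr8:75109259-75109558, plus strand: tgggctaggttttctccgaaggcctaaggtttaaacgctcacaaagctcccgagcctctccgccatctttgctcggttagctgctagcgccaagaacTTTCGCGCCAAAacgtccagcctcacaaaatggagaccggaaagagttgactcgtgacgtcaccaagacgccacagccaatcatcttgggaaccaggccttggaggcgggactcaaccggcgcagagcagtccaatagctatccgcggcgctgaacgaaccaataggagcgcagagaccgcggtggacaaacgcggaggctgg
Mcm6, chr1:128359656-128359955, minus strand: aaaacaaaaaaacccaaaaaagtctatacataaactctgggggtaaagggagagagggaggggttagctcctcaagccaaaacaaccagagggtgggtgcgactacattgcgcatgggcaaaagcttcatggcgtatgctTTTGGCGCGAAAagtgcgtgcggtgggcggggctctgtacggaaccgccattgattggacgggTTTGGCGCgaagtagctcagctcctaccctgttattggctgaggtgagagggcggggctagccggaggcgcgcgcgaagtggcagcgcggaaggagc
Uhrf1, chr17:56304063-56304362, plus strand: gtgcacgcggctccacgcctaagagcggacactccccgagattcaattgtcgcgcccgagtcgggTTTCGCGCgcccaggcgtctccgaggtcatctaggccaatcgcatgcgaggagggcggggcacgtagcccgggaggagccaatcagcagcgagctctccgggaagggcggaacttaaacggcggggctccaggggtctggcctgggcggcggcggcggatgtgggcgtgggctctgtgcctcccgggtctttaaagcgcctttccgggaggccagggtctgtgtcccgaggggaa
Mcm7, chr5:138171834-138172133, minus strand: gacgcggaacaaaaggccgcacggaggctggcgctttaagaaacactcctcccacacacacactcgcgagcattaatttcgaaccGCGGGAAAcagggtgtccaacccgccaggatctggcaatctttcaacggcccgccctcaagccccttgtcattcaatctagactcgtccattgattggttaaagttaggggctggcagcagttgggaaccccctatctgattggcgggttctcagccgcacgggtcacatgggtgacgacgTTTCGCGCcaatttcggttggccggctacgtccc
Tk1, chr11:117825965-117826264, minus strand: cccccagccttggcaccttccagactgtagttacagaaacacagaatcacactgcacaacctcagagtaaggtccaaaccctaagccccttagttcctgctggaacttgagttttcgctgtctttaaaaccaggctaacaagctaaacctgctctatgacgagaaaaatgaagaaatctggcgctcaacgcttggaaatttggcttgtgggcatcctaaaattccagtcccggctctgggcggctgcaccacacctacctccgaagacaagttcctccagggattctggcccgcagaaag
In Mcm5 the 2 matches overlap on opposite strands, beginning 153 and 149 bases before the start site. Mcm6 has such a pair at 110 and 106 bases before the start site and another match 47 bases before it. Uhrf1 has 1 match, 185 bases before its start site, and Mcm7 has 2, at 165 bases before and 16 bases after. Tk1 has none of these words in its window, which says nothing of a factor. Among the other genes with a window that rose at all weeks, Mcm2, Pcna, Rrm1 and Chaf1a had none of these words either. Mcm3 and Pold1 had at least 1.

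Of the 31 genes with a window, 13 (41.9%) held at least 1 of these words, beside 4.26% of 11055 measured genes and 2.6% of all 27025 genes with a window. By response to diet, they were in 7 of 17 genes that rose at 2 weeks (41.2%) and in 5 of 11 that were measured and did not (45.5%). The words TTTGAA and TTCGAA, of the cell cycle homology region known from mitotic genes, were in 19.4% of the 31 genes, 17% of measured genes and 21.7% of all genes. The box CCAAT was in 61.3%, 42.5% and 41.1%. A match is a description of the letters and not a binding site.

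Most origin licensing genes rose. Of the 10 listed 9 were measured, and 7, 6 and 5 rose at 1, 2 and 6 weeks with 0 falling. Their median difference was 1.21, 1.64 and 0.86. Mcm5, a subunit of the replicative helicase, was at -1.96 and -2.17 with CDAHFD against -4.07 and -3.97 with control diet at 1 week. It was at -1.37 and -1.83 with CDAHFD against -5.43 and -4.95 with control diet at 2 weeks. The last values were -2.82 and -1.50 with CDAHFD against -4.64 and -4.14 with control diet at 6 weeks. Each CDAHFD array lay above every control array of its week by more than 1 unit. The Mcm5 difference was 1.83, 3.54 and 2.19 at 1, 2 and 6 weeks (SE 0.38 each, adjusted p = 0.00317, 8.76e-05 and 0.00137), or 3.55-fold, 11.6-fold and 4.56-fold. At 6 weeks it was 2.82 without the first CDAHFD array and 1.54 without the second, and both values passed.

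Mcm2, another helicase subunit and a histone carrier at the fork, was at -3.43 and -3.57 with CDAHFD against -5.09 and -5.19 with control diet at 1 week, -3.16 and -3.44 with CDAHFD against -6.02 and -5.58 with control diet at 2 weeks, and -4.35 and -3.17 with CDAHFD against -6.08 and -5.20 with control diet at 6 weeks. Its groups did not overlap at any week, and its difference was 1.51, 2.44 and 1.84 at 1, 2 and 6 weeks (SE 0.38 each, adjusted p = 0.00673, 5.92e-04 and 0.00288). With a model-based background correction (normexp, with an offset of 50 added to the signals) the Mcm2 difference at 1 week was 0.62. It no longer passed in limma (adjusted p = 0.189). The part of that offset in the normexp values was not tested. Mcm6, also of the helicase, was at 0.72 and 0.51 with CDAHFD against -1.10 and -1.18 with control diet at 1 week, 1.05 and 0.78 with CDAHFD against -1.61 and -1.37 with control diet at 2 weeks, and -0.04 and 1.13 with CDAHFD against -1.53 and -1.05 with control diet at 6 weeks. It was apart from control in the same way. The difference of Mcm6 was 1.63, 2.35 and 1.79 at 1, 2 and 6 weeks (SE 0.32 each, adjusted p = 0.00260, 4.42e-04 and 0.00189), or 3.10-fold, 5.11-fold and 3.46-fold. Mcm3 and Mcm4 rose by 1.21 and 1.34 at 1 week, by 1.47 and 1.64 at 2 weeks and by 0.90 and 0.86 at 6 weeks.

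Mcm7 completes the hexamer and was not called at any week. It was at -0.09 and -0.27 with CDAHFD against -0.61 and -0.59 with control diet at 1 week, 0.11 and -0.27 with CDAHFD against -0.28 and -0.79 with control diet at 2 weeks, and -0.52 and -0.14 with CDAHFD against -0.56 and -0.65 with control diet at 6 weeks. Both CDAHFD arrays exceeded both control arrays at 1, 2 and 6 weeks, but narrowly at 2 and 6 weeks, and its difference of 0.29, 0.40 and 0.24 at 1, 2 and 6 weeks (SE 0.19 each, adjusted p = 0.100, 0.0856 and 0.280) did not pass.

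CDT1 and CDC6 are the loading factors that bring the helicase to an origin. Cdt1 was at -0.38 and -0.78 with CDAHFD against -1.42 and -1.42 with control diet at 1 week, -0.22 and -0.56 with CDAHFD against -2.38 and -1.82 with control diet at 2 weeks, and -1.16 and -0.76 with CDAHFD against -1.50 and -1.45 with control diet at 6 weeks. The control arrays were lowest at 2 weeks, and no CDAHFD array was below a control array of its week. The Cdt1 difference was 0.71, 1.66 and 0.48 at 1, 2 and 6 weeks (SE 0.21 each, adjusted p = 0.0102, 1.47e-04 and 0.0772), so it rose at 1 and 2 weeks, while without the first CDAHFD array of 1 week it was 0.54 there (adjusted p = 0.0993). Cdc6 was at -6.76 and -7.12 with CDAHFD against -6.46 and -9.05 with control diet at 1 week, -6.54 and -7.10 with CDAHFD against -6.94 and -8.86 with control diet at 2 weeks, and -8.36 and -8.22 with CDAHFD against -8.94 and -7.61 with control diet at 6 weeks. It was above background on only 3 arrays, all from CDAHFD mice at 1 or 2 weeks, its groups overlapped at every week, and its difference of 0.69, 1.02 and -0.06 at 1, 2 and 6 weeks (SE 0.86 each, adjusted p = 0.473, 0.353 and 0.990) did not pass.

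Orc6, the smallest subunit of the origin recognition complex, rose by 0.39 ± 0.17 at 1 week (adjusted p = 0.0329), and its differences of 0.28 and -0.06 at 2 and 6 weeks did not pass. The call at 1 week was lost under 8 of 25 alternatives, and against the control arrays of 2 and 6 weeks the difference was -0.043 (adjusted p = 0.935). Orc1, the ATPase subunit, was above background on 0 of 12 arrays and gave no measurement.

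**Figure D3:**
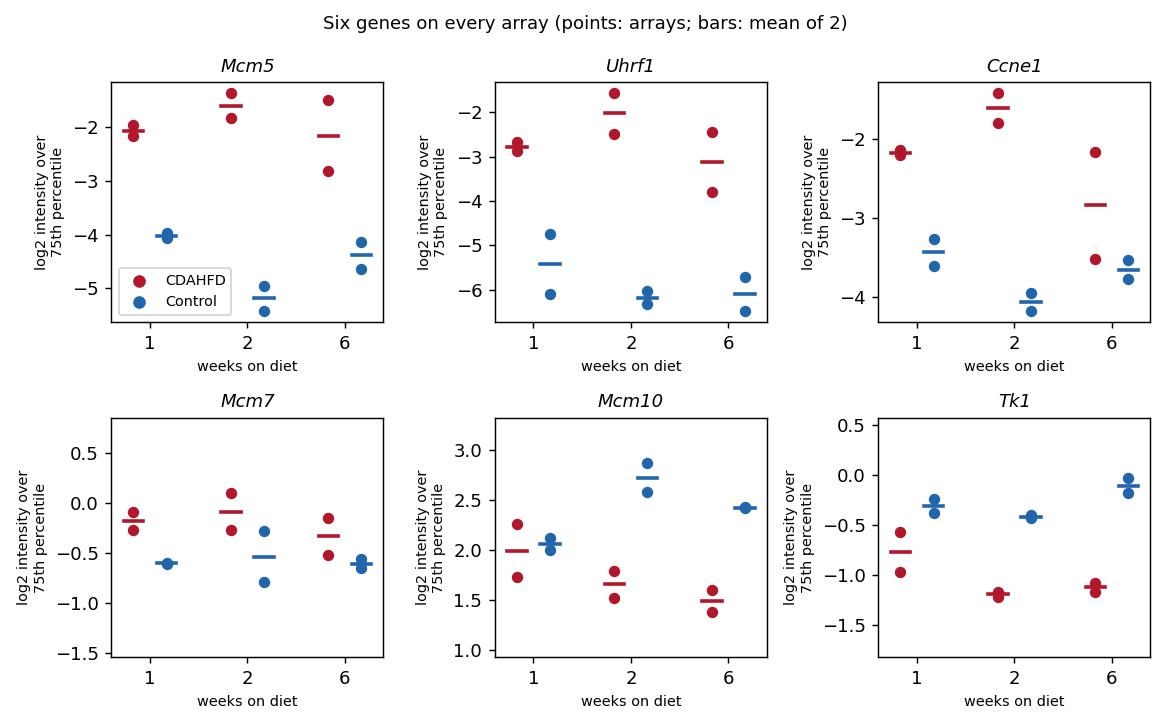
Points are the arrays and short bars the means of 2 arrays for Mcm5, Uhrf1, Ccne1, Mcm7, Mcm10 and Tk1, as log2 intensity over the array's 75th percentile, with CDAHFD left of control at 1, 2 and 6 weeks. The vertical range differs by panel. Mcm5, Uhrf1 and Ccne1 lie higher on CDAHFD at 1 and 2 weeks, Mcm7 was called at no week, and Mcm10 and Tk1 lie lower on CDAHFD at 2 and 6 weeks.

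Genes of origin firing did not move together. Of 3 measured genes, 0 passed at 1 week, and 1 rose and 1 fell at 2 and at 6 weeks. Gins2, a subunit of the GINS complex that completes the active helicase, was at -5.10 and -5.31 with CDAHFD against -5.87 and -6.54 with control diet at 1 week, -4.76 and -4.36 with CDAHFD against -7.78 and -6.25 with control diet at 2 weeks, and -4.90 and -4.29 with CDAHFD against -6.13 and -6.58 with control diet at 6 weeks. All CDAHFD arrays were above the control arrays of their week, and 1 control array of 2 weeks was below background. Its difference was 0.87, 2.40 and 1.72 at 1, 2 and 6 weeks (SE 0.46 each, adjusted p = 0.108, 0.00212 and 0.0118), or 5.28-fold and 3.29-fold at 2 and 6 weeks. With normexp the differences at 2 and 6 weeks were 0.62 and 0.56 and did not pass (adjusted p = 0.21 and 0.215), and at 2 weeks the difference was 1.65 or 3.15 when the first or the second control array was left out. Gins1, of the same complex, was at -2.52 and -2.53 with CDAHFD against -2.58 and -2.65 with control diet at 1 week, -2.30 and -2.57 with CDAHFD against -2.84 and -2.77 with control diet at 2 weeks, and -3.34 and -2.26 with CDAHFD against -2.61 and -2.54 with control diet at 6 weeks. Its difference of -0.04, 0.31 and -0.26 at 1, 2 and 6 weeks (SE 0.27 each, adjusted p = 0.822, 0.312 and 0.544) did not pass, with overlapping groups at 6 weeks.

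Mcm10, which helps to activate the assembled helicase, ran the other way. It was at 1.73 and 2.26 with CDAHFD against 2.00 and 2.12 with control diet at 1 week, 1.52 and 1.79 with CDAHFD against 2.87 and 2.58 with control diet at 2 weeks, and 1.38 and 1.60 with CDAHFD against 2.43 and 2.42 with control diet at 6 weeks. The groups overlapped at 1 week, and at 2 and 6 weeks every CDAHFD array was below every control array. Its difference was -0.20, -1.12 and -0.97 at 1, 2 and 6 weeks (SE 0.18 each, adjusted p = 0.778, 9.51e-04 and 0.00189), so it fell at 2 and 6 weeks, to 0.459 and 0.509 of the control level, and both calls were kept in all 24 alternatives run for them. Cdc45, the helicase partner of GINS, was above background on 2 CDAHFD arrays only, so it was not tested. Its single probe was at -7.32 and -5.84 with CDAHFD against -7.71 and -7.39 with control diet at 1 week, -7.09 and -6.80 with CDAHFD against -7.52 and -6.96 with control diet at 2 weeks, and -7.52 and -7.95 with CDAHFD against -7.00 and -7.42 with control diet at 6 weeks.

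Enzymes of the fork rose in part, with the clamp and DNA polymerase delta called at all 3 weeks. Of 11 measured genes, 5, 6 and 3 rose at 1, 2 and 6 weeks and 0 fell, and their median difference was 0.49, 0.76 and 0.35. Pcna, the sliding clamp, was at 0.40 and 0.25 with CDAHFD against -0.32 and -0.26 with control diet at 1 week, 0.60 and 0.65 with CDAHFD against -0.53 and -0.15 with control diet at 2 weeks, and 0.41 and 0.73 with CDAHFD against -0.10 and 0.03 with control diet at 6 weeks. No group overlapped its control at any week. The Pcna difference was 0.49, 0.91 and 0.57 at 1, 2 and 6 weeks (SE 0.15 each, adjusted p = 0.00765, 5.47e-04 and 0.00759), or 1.88-fold at 2 weeks. The catalytic subunit of polymerase delta, Pold1, rose by 0.71, 0.86 and 0.74. The Pcna call at 1 week was lost with the percentile over all gene probes, and the Pold1 calls at 1 and 6 weeks were lost with normexp. Lig1, which seals Okazaki fragments, was at -1.70 and -1.59 with CDAHFD against -2.27 and -2.31 with control diet at 1 week, -1.46 and -1.58 with CDAHFD against -2.60 and -2.52 with control diet at 2 weeks, and -2.07 and -1.13 with CDAHFD against -2.73 and -2.55 with control diet at 6 weeks. Its difference was 0.52, 0.98 and 1.00 at 1, 2 and 6 weeks (SE 0.24 each, adjusted p = 0.0518, 0.00631 and 0.00570), so it passed at 2 and 6 weeks only.

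Polymerase alpha and primase start each fragment. Prim1, the small catalytic primase subunit, was at -1.51 and -1.64 with CDAHFD against -2.55 and -2.39 with control diet at 1 week, -1.56 and -1.74 with CDAHFD against -2.53 and -2.53 with control diet at 2 weeks, and -2.42 and -1.43 with CDAHFD against -2.59 and -2.28 with control diet at 6 weeks. CDAHFD arrays were higher at 1 and 2 weeks, and at 6 weeks the first CDAHFD array lay between the control arrays. Its difference was 0.77, 0.82 and 0.47 at 1, 2 and 6 weeks (SE 0.26 each, adjusted p = 0.0197, 0.0224 and 0.146). The Prim1 call at 1 week was lost in 5 of 25 alternatives. Prim2, the large subunit, was at -3.54 and -3.56 with CDAHFD against -4.08 and -3.75 with control diet at 1 week, -3.71 and -3.52 with CDAHFD against -3.93 and -3.85 with control diet at 2 weeks, and -4.04 and -3.45 with CDAHFD against -3.82 and -3.77 with control diet at 6 weeks. Its difference of 0.24, 0.22 and 0.01 at 1, 2 and 6 weeks (SE 0.20 each, adjusted p = 0.172, 0.321 and 0.871) did not pass. Pola1, the polymerase alpha catalytic subunit, was at -3.91 and -3.54 with CDAHFD against -4.71 and -4.50 with control diet at 1 week, -3.94 and -3.73 with CDAHFD against -4.76 and -4.27 with control diet at 2 weeks, and -4.36 and -3.56 with CDAHFD against -4.56 and -4.54 with control diet at 6 weeks. Its CDAHFD arrays were above the control arrays of the same week throughout, and its difference was 0.75, 0.63 and 0.55 at 1, 2 and 6 weeks (SE 0.27 each, adjusted p = 0.0243, 0.0705 and 0.109), past the threshold at 1 week only. That call was lost in 5 of 25 alternatives.

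Pole, the catalytic subunit of the leading-strand polymerase, was at -3.15 and -2.96 with CDAHFD against -3.52 and -3.55 with control diet at 1 week, -2.53 and -2.95 with CDAHFD against -3.81 and -4.05 with control diet at 2 weeks, and -3.93 and -2.55 with CDAHFD against -3.61 and -3.62 with control diet at 6 weeks. The CDAHFD arrays of 6 weeks lay on both sides of the control arrays, and the difference was 0.35, 1.14 and 0.34 at 1, 2 and 6 weeks (SE 0.36 each, adjusted p = 0.303, 0.0244 and 0.435). Fen1, the nuclease that trims Okazaki flaps, was at -0.56 and -0.89 with CDAHFD against -1.49 and -1.40 with control diet at 1 week, -0.37 and -0.60 with CDAHFD against -1.43 and -1.17 with control diet at 2 weeks, and -1.34 and -0.52 with CDAHFD against -1.56 and -1.09 with control diet at 6 weeks. The Fen1 difference was 0.60, 0.76 and 0.35 at 1, 2 and 6 weeks (SE 0.25 each, adjusted p = 0.0447, 0.0296 and 0.249), and the call at 1 week was lost in 13 of 25 alternatives. Leaving out any 1 of the 4 arrays of 2 weeks ended the calls of Pole, Prim1 and Fen1 there.

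RFC loads the clamp onto DNA, and its 3 genes were called at no single week. Rfc4 was at -1.92 and -2.00 with CDAHFD against -2.33 and -2.18 with control diet at 1 week, -1.63 and -1.93 with CDAHFD against -2.49 and -2.23 with control diet at 2 weeks, and -2.31 and -1.61 with CDAHFD against -2.29 and -2.11 with control diet at 6 weeks. CDAHFD arrays were higher at 1 and 2 weeks and overlapped the control arrays at 6 weeks. The Rfc4 difference was 0.17, 0.53 and 0.20 at 1, 2 and 6 weeks (SE 0.21 each, adjusted p = 0.287, 0.0512 and 0.390), and its second probe gave 0.59 at 2 weeks (adjusted p = 0.0499). Rfc3 was at -4.67 and -4.83 with CDAHFD against -4.33 and -4.42 with control diet at 1 week, -4.88 and -4.72 with CDAHFD against -5.06 and -4.71 with control diet at 2 weeks, and -5.30 and -4.46 with CDAHFD against -4.38 and -4.27 with control diet at 6 weeks. At 1 and 6 weeks its control arrays were the higher ones, and its difference of -0.50, 0.03 and -0.59 at 1, 2 and 6 weeks (SE 0.26 each, adjusted p = 0.264, 0.824 and 0.111) did not pass. Rfc5 was at -0.92 and -0.80 with CDAHFD against -0.56 and -0.49 with control diet at 1 week, -0.72 and -0.75 with CDAHFD against -0.59 and -0.48 with control diet at 2 weeks, and -1.09 and -0.40 with CDAHFD against -0.30 and -0.34 with control diet at 6 weeks. At each week both its CDAHFD arrays were below both control arrays, and its difference was -0.47, -0.26 and -0.46 at 1, 2 and 6 weeks (SE 0.18 each, adjusted p = 0.160, 0.415 and 0.0866). Averaged over the weeks Rfc5 was lower on CDAHFD by 0.40 on the log2 scale (adjusted p = 0.0213).

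The nucleotide supply genes split between ribonucleotide reductase and thymidine salvage. Rrm1, the large reductase subunit, was at -2.56 and -2.64 with CDAHFD against -3.46 and -3.23 with control diet at 1 week, -2.34 and -2.59 with CDAHFD against -3.68 and -3.48 with control diet at 2 weeks, and -2.90 and -2.33 with CDAHFD against -3.57 and -3.46 with control diet at 6 weeks. All CDAHFD arrays were above all 6 control arrays, and the Rrm1 difference was 0.62, 1.06 and 0.86 at 1, 2 and 6 weeks (SE 0.19 each, adjusted p = 0.0115, 0.00124 and 0.00384). The Rrm1 call at 1 week was lost in 5 of 25 alternatives. Rrm2, the small subunit that limits the enzyme in S phase, was at -1.33 and -1.39 with CDAHFD against -2.27 and -1.89 with control diet at 1 week, -0.28 and -0.65 with CDAHFD against -2.67 and -2.02 with control diet at 2 weeks, and -2.32 and -0.19 with CDAHFD against -2.14 and -1.84 with control diet at 6 weeks. The first CDAHFD array of 6 weeks was below both of its controls and the second above all others of the study. Its difference was 0.59, 1.83 and 0.69 at 1, 2 and 6 weeks (SE 0.61 each, adjusted p = 0.380, 0.0471 and 0.385), or 3.55-fold at 2 weeks, a call that was lost in 13 of 24 alternatives.

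Tk1, the thymidine kinase of S phase that salvages thymidine, fell at every week. It was at -0.97 and -0.57 with CDAHFD against -0.24 and -0.37 with control diet at 1 week, -1.17 and -1.22 with CDAHFD against -0.40 and -0.43 with control diet at 2 weeks, and -1.08 and -1.17 with CDAHFD against -0.03 and -0.18 with control diet at 6 weeks. Every CDAHFD array was below every control array of the study. The Tk1 difference was -0.59, -0.83 and -1.06 at 1, 2 and 6 weeks (SE 0.13 each, adjusted p = 0.0195, 0.00122 and 1.82e-04), which is 0.664, 0.562 and 0.481 of the control level. The call at 1 week was lost with median centring and without the first CDAHFD or the first control array of that week, and those at 2 and 6 weeks were kept in all 24 alternatives. Tyms, which makes thymidylate by the other route, was at -6.23 and -6.85 with CDAHFD against -6.36 and -7.40 with control diet at 1 week, -6.99 and -6.69 with CDAHFD against -6.82 and -6.94 with control diet at 2 weeks, and -6.64 and -6.68 with CDAHFD against -7.45 and -7.01 with control diet at 6 weeks. It was above background on 5 CDAHFD arrays and 0 control arrays, and its fitted differences did not pass (adjusted p = 0.507, 0.952 and 0.278).

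Of the S-phase regulators, 3 of 4 were measured, and 1, 2 and 1 rose. Ccne1, the cyclin that partners CDK2 at the entry to S phase, was at -2.20 and -2.14 with CDAHFD against -3.26 and -3.60 with control diet at 1 week, -1.42 and -1.79 with CDAHFD against -4.18 and -3.95 with control diet at 2 weeks, and -3.51 and -2.17 with CDAHFD against -3.77 and -3.53 with control diet at 6 weeks. Its groups were well apart at 1 and 2 weeks, and at 6 weeks the first CDAHFD array lay next to the control arrays. The Ccne1 difference was 1.13, 2.40 and 0.77 at 1, 2 and 6 weeks (SE 0.36 each, adjusted p = 0.0190, 5.55e-04 and 0.0971), or 2.19-fold, 5.29-fold and 1.71-fold. Its call at 1 week was lost in 6 of 25 alternatives, among them normexp and the mean of probes. A second Ccne1 probe was above background on 3 CDAHFD arrays (1 at 1 week and 2 at 2 weeks) and 0 control arrays, so no difference is given for it. Ccne2, the sister cyclin, was above background on 0 arrays, at -9.82 and -9.72 with CDAHFD against -8.62 and -9.25 with control diet at 1 week, -9.37 and -9.46 with CDAHFD against -8.70 and -8.85 with control diet at 2 weeks, and -9.39 and -9.37 with CDAHFD against -9.11 and -9.05 with control diet at 6 weeks.

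E2f1, an activator of the genes of S phase, was at -3.23 and -3.15 with CDAHFD against -3.48 and -3.75 with control diet at 1 week, -2.60 and -2.77 with CDAHFD against -3.57 and -3.63 with control diet at 2 weeks, and -3.19 and -2.67 with CDAHFD against -3.52 and -3.55 with control diet at 6 weeks. All CDAHFD arrays were above all control arrays of their week. The E2f1 difference was 0.30, 0.86 and 0.57 at 1, 2 and 6 weeks (SE 0.18 each, adjusted p = 0.0831, 0.00266 and 0.0207), and the call at 6 weeks was lost in 7 of 24 alternatives. E2f2, a second activator, was at -3.10 and -3.23 with CDAHFD against -3.18 and -3.62 with control diet at 1 week, -2.97 and -3.37 with CDAHFD against -3.88 and -3.74 with control diet at 2 weeks, and -3.77 and -2.53 with CDAHFD against -4.02 and -4.00 with control diet at 6 weeks. At 1 week its groups overlapped and at 6 weeks the CDAHFD arrays were 1.23 apart. The E2f2 difference of 0.11, 0.59 and 0.82 at 1, 2 and 6 weeks (SE 0.33 each, adjusted p = 0.598, 0.156 and 0.0632) did not pass.

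Chromatin factors of the fork gave the largest single difference of the list. Of 4 listed genes 3 were measured, and 3, 3 and 2 rose. Uhrf1, which recognises hemimethylated DNA behind the fork and recruits the maintenance methylase, was at -2.68 and -2.88 with CDAHFD against -4.75 and -6.09 with control diet at 1 week. It was at -1.57 and -2.49 with CDAHFD against -6.31 and -6.04 with control diet at 2 weeks. The last values were -3.81 and -2.45 with CDAHFD against -6.48 and -5.71 with control diet at 6 weeks. Every CDAHFD array was above every control array of the study. The Uhrf1 difference was 2.51, 4.09 and 2.93 at 1, 2 and 6 weeks (SE 0.56 each, adjusted p = 0.00563, 5.05e-04 and 0.00282), or 5.71-fold, 17.0-fold and 7.61-fold. At 2 weeks 1 control array, and at 6 weeks 1 other, was below background for it. At 1 week, where its probe lies in a dim block of the first control array, the difference was 3.20 with dim spots masked, 3.19 without that array and 1.86 without the second control array. With normexp the differences were 1.26, 2.16 and 1.28 (adjusted p = 0.0594, 0.0042 and 0.0457).

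Chaf1a and Chaf1b encode the large and middle subunits of the chromatin assembly factor that deposits histones on new DNA. Chaf1a was at -4.12 and -4.17 with CDAHFD against -5.23 and -5.11 with control diet at 1 week, -3.23 and -3.77 with CDAHFD against -6.19 and -5.86 with control diet at 2 weeks, and -4.58 and -3.64 with CDAHFD against -5.54 and -5.36 with control diet at 6 weeks. Its groups did not overlap at any week, and 1 control array of 2 weeks was below background. The Chaf1a difference was 0.90, 2.47 and 1.30 at 1, 2 and 6 weeks (SE 0.30 each, adjusted p = 0.0189, 9.97e-05 and 0.00462), and with normexp it was 0.05, 0.80 and 0.47 and passed at no week (adjusted p = 0.645, 0.0604 and 0.27). Chaf1b was at -1.60 and -1.63 with CDAHFD against -2.38 and -2.55 with control diet at 1 week, -1.17 and -1.59 with CDAHFD against -2.79 and -2.42 with control diet at 2 weeks, and -2.20 and -1.18 with CDAHFD against -2.39 and -2.34 with control diet at 6 weeks. The first CDAHFD array of 6 weeks lay nearest to its controls. The Chaf1b difference was 0.72, 1.17 and 0.63 at 1, 2 and 6 weeks (SE 0.28 each, adjusted p = 0.0357, 0.00692 and 0.0825), and its second probe gave 0.60, 1.11 and 0.64, which passed at 2 weeks and not at 1 or 6 weeks (adjusted p = 0.0707, 0.00967 and 0.0917). The Chaf1b call at 1 week was lost in 10 of 25 alternatives. Brca1, a repair factor that also protects stalled forks, was above background on 0 of 12 arrays, at -8.26 and -7.79 with CDAHFD against -7.42 and -8.49 with control diet at 1 week, -7.39 and -8.27 with CDAHFD against -7.90 and -8.72 with control diet at 2 weeks, and -8.42 and -9.07 with CDAHFD against -8.81 and -8.45 with control diet at 6 weeks. No order can be read from values below background.

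The diet difference was at its highest at 2 weeks for 25 of the 33 genes, but no change between weeks passed a test. An F test over the 3 diet differences called 0 of 33 genes in limma, beside 2.41% of all genes. At an unadjusted p under 0.05 it gave 6 genes, Ccne1, Cdt1, Chaf1a, Mcm5, Mcm10 and Tk1, and the lowest adjusted p was 0.0834, for Mcm10. The change of 2 minus 1 week called 0 members (6 unadjusted), where 0.475% of all genes were called higher and 0.806% lower. The change of 6 minus 2 weeks called 0 members (4 unadjusted) and 0% of all genes. The change of 6 minus 1 week called 0 members (3 unadjusted), beside 2.52% and 2.75% of all genes. With only the arrays of their own slide, the Mcm5 difference was larger at 2 weeks than at 1 week by 1.65 and passed, and without the second CDAHFD array of 6 weeks the F test called 6 genes (Ccne1, Chaf1a, Gins1, Mcm5, Pole and Rrm2).

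Within a diet few members were called over time. On CDAHFD 0 members were called for 2 minus 1 week (2 at an unadjusted p under 0.05), where 0.129% of all genes were called higher and 0.151% lower. For 6 minus 2 weeks it was 0 members (3 unadjusted) beside 0% and 0.0144% of all genes, and for 6 minus 1 week 0 members (2 unadjusted) beside 3.93% and 2.99%. On the control diet Mcm10 was higher at 2 weeks than at 1 week by 0.66 ± 0.18 (adjusted p = 0.0475), where 5.01% of all genes were called higher and 2.96% lower. Orc6 was higher on the control diet at 6 weeks than at 1 week by 0.58 ± 0.17 (adjusted p = 0.0391), where 8.49% were called higher and 7.43% lower, and that pair crosses slides. For 6 minus 2 weeks on the control diet 0 members were called (2 unadjusted), beside 0% of all genes.

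The 2 CDAHFD arrays of 6 weeks differed from each other in these genes. The first was below the second in 31 of 33 members, by a median of 0.80, while over all genes 51.9% were lower on the first. It was also lower in 18 of 18 mitosis genes, by a median of 1.22. In the other groups the first array was lower in 8 (CDAHFD) and 16 (control) members at 1 week, in 7 (CDAHFD) and 25 (control) at 2 weeks, and in 26 of the control group at 6 weeks, with medians of the second minus the first between -0.27 and 0.23. The mean level of the 33 members was -2.80 and -2.02 on the CDAHFD arrays of 6 weeks, against -3.16 and -2.95 on the control arrays. At 2 weeks it was -1.94 and -2.17 on CDAHFD arrays, against -3.29 and -3.15 on control arrays, and at 1 week -2.20 and -2.29 on CDAHFD arrays, against -2.91 and -3.07 on control arrays. Every CDAHFD array was thus above every control array in this mean, the first CDAHFD array of 6 weeks by the least.

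**Figure D4:**
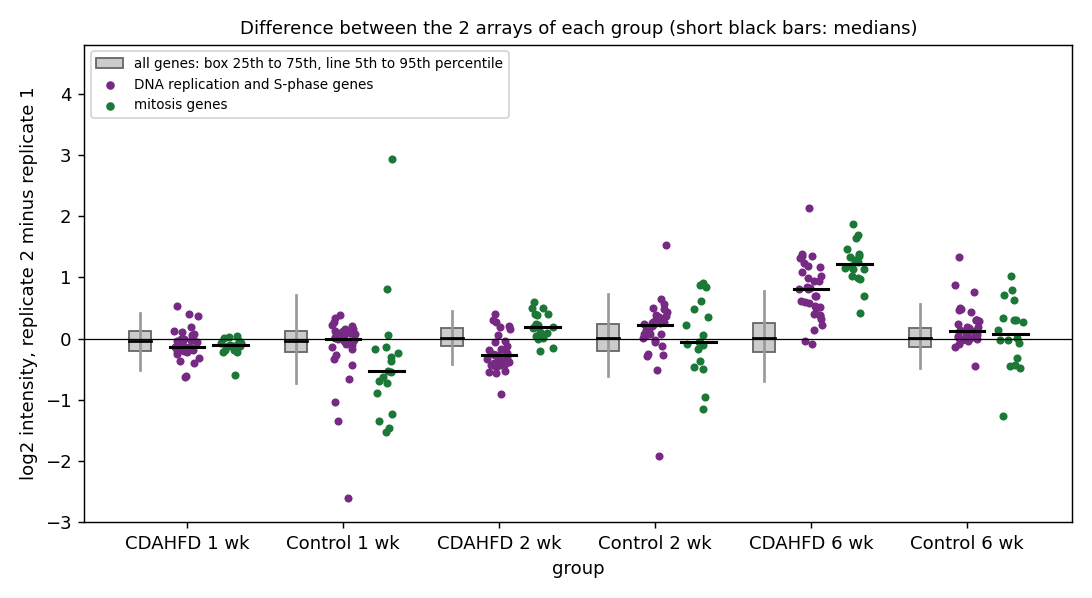
Each point is 1 gene's log2 level on the second array of a group minus that on the first, for the 33 replication and S-phase genes and 18 mitosis genes, with short black bars at the medians and a box and line for all genes. Only the CDAHFD group of 6 weeks has nearly all points of both lists above 0, with medians of 0.80 and 1.22.

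Other genes of the cell cycle were read from lists chosen by function, with earlier results of these data known. Of 52 further replication genes 47 were measured, and 18, 16 and 10 rose while 3, 2 and 2 fell at 1, 2 and 6 weeks, with medians of 0.21, 0.26 and 0.03. Over all genes 25.8%, 23.0% and 24.6% rose and 15.1%, 14.7% and 16.0% fell, so at 6 weeks the share of these genes that rose was below that of all genes. With normexp 3, 6 and 6 of the 47 rose and 6, 2 and 2 fell. In that setting the share of all genes that rose went from 10.8% at 1 week to 14.4% at 6 weeks. The share that fell was 21.7% at 1 week and 12.6% at 2 and at 6 weeks. Gins3 and Pole4 fell at 1 week, and Shmt1 fell at all 3 weeks. Exo1, an exonuclease of repair and replication, had a fitted rise of 3.68 ± 0.48 at 2 weeks, and Pole2, a polymerase epsilon subunit, of 3.06 ± 0.43. Both were below background on the control arrays of 2 weeks, so these are bounded, relative to the all-gene median, as at least 3.93-fold and at least 1.91-fold higher on CDAHFD, where the dim side is set at the lowest signal above background or at its own value if that is higher. Of 32 E2F and CDK regulators, 11, 11 and 10 rose and 2, 1 and 1 fell, with medians of 0.33, 0.37 and 0.13, and with normexp 5, 7 and 7 rose. E2f7, a repressor, fell at 1 week, and Tfdp2, an E2F partner, at all weeks, by 0.61 on the log2 scale at 2 weeks. Ccna2, the S and G2 phase cyclin, rose by 3.43 ± 0.49 at 2 weeks. Cdk1, the kinase of mitotic entry, had a fitted rise of 3.89 ± 0.40 and was at least 3.32-fold higher, with both control arrays below background.

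Nearly all measured mitosis genes rose. Of 20 listed 18 were measured, and 17, 18 and 17 rose and 0 fell, with medians of 2.48, 3.09 and 2.56. With normexp 6, 11 and 11 of the 18 rose and 0 fell, with medians of 0.80, 1.24 and 1.18. In that setting 10.8% of all genes rose at 1 week and 14.4% at 6 weeks. At 2 weeks Ccnb1, the cyclin of mitosis, was at least 7.55-fold higher on CDAHFD and Tpx2, a spindle assembly factor, at least 6.86-fold, with fitted rises of 4.16 ± 0.51 and 4.08 ± 0.61. Only 7 of the 18 were above background on all 12 arrays, against 35 of 47 other replication genes and 22 of 32 regulators, and 8 of the 18 were below background on both control arrays of 2 weeks, where a fitted difference is not a measured one. These counts describe the lists and were not tested against each other.

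**Figure D5:**
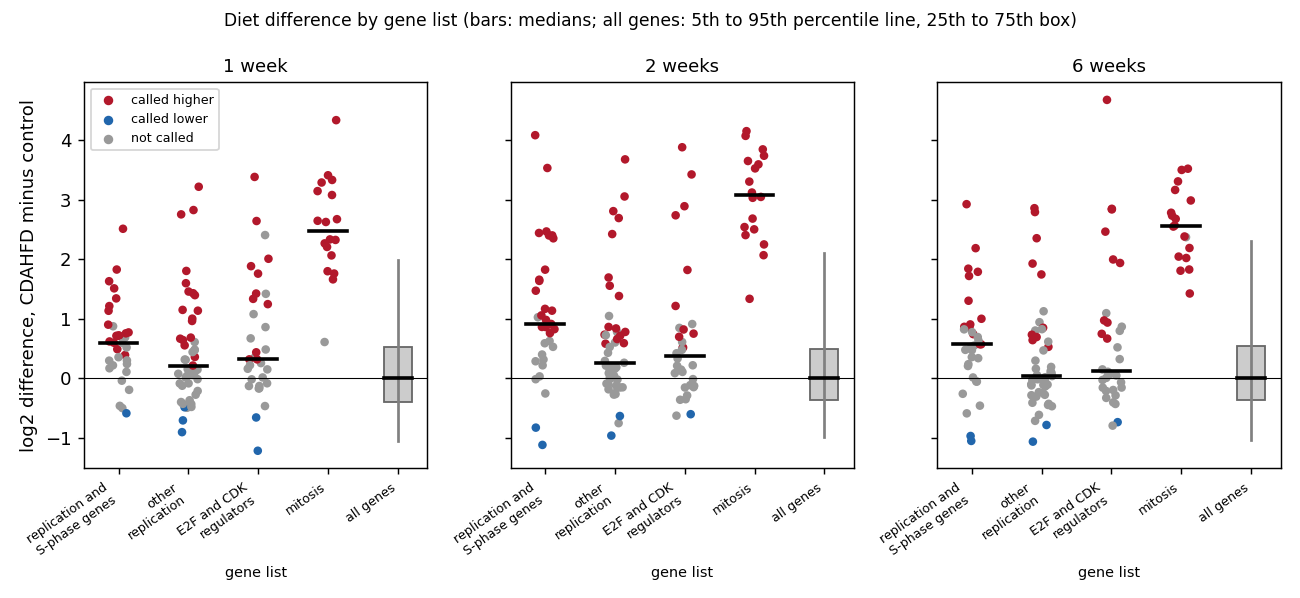
Points are log2 differences of CDAHFD minus control at 1, 2 and 6 weeks for the 33 replication and S-phase genes, 47 other replication genes, 32 E2F and CDK regulators and 18 mitosis genes, with bars at the medians, beside the spread of all 13901 genes. The mitosis genes have the highest median at each week, 2.48, 3.09 and 2.56. The other replication genes have medians of 0.21, 0.26 and 0.03, where the all-gene median is at 0.

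Markers of other cell types moved with diet in the same RNA. In whole liver RNA, more cells of a type and more RNA per cell cannot be told apart. Summed intensity of 8 macrophage markers, in units of each array's 75th percentile, ranged from 13.1 to 20.3 on CDAHFD arrays, against 4.86 to 9.43 on control arrays, and 4, 6 and 6 of the 8 rose and 1, 0 and 0 fell. That of 7 stellate cell markers ranged from 16.2 to 29.9 on CDAHFD arrays, against 7.83 to 10.2 on control arrays, with 6 rising at each week and 0 falling. B cell markers (4 of 6 measured) summed to 0.992 to 3.15 on CDAHFD arrays, against 0.167 to 0.282 on control arrays, with 4, 2 and 2 rising, while Cd79a and Pax5 were not measured.

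Hepatocyte markers moved the other way. The 8 markers, among them albumin, summed to 142 to 247 on CDAHFD arrays, against 256 to 464 on control arrays, and 7, 4 and 1 fell with 0 rising. T cell markers (6 of 8 measured, without Cd8a and Trac) summed to 0.674 to 1.12 on CDAHFD arrays, against 0.583 to 1.38 on control arrays, with 4, 3 and 4 rising and 2, 0 and 0 falling. Neutrophil markers summed to 1.22 to 2.22 on CDAHFD arrays, against 0.332 to 0.542 on control arrays, with 2, 2 and 3 of 6 rising and 1, 0 and 0 falling. Of 6 endothelial markers 1 rose at each week and 0, 0 and 3 fell, and of 5 cholangiocyte markers 1, 1 and 2 rose and 1, 0 and 0 fell. Which cells carried the replication genes, and the part of these markers in their differences, was not tested. Between the 2 CDAHFD arrays of 6 weeks the macrophage sum was 20.3 on the first and 17.9 on the second, the hepatocyte sum 229 and 205 and the T cell sum 1.00 and 0.674. The other sums were lower on the first, at 26.8 and 29.9 for stellate cells, 2.57 and 3.15 for B cells, 1.66 and 2.22 for neutrophils, 5.71 and 6.42 for endothelial cells and 1.35 and 1.44 for cholangiocytes.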

How the data were processed

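Liver RNA of 12 samples (2 per group) was labelled with Cy3 from 150 ng each, per the labels' protocols. Per the file headers, the deposited spot intensity is linear, had its background subtracted by the scanner software and was not scaled across arrays. They name Agilent Feature Extraction 11.5.1.1 and the submitters' processing notes name 10.7. Of 62976 spots, 59305 carried 55681 gene probes, with 0 saturated. Control spots and outlier flags were left out (54 values missing) and spots of 1 probe averaged. Accessions were named through RefSeq (GRCm38.p6), which gave 28664 probes a symbol.

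From these intensities, log2 values minus each array's 75th percentile over the 20172 probes above background on all arrays were computed. A probe was kept if above background on both arrays of any group, and a gene read by its brightest probe. The 6 group means were fitted on all arrays with limma 3.58.1 in R 4.3.3 (trend and robust, 6 residual degrees of freedom). The members and lists were chosen with earlier results of these data known. The naming rule allowed every member and, of other lists, the 2 largest calls per direction at 2 weeks and any called lower. A result for 1 gene of another list is not reported here. Alternatives are in the closing section. The number of arrays limits the precision.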

Additional observations from a re-analysis of the deposited data

Results flagged for a closer look

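Of the 43 probes of the 37 genes, 10 were not the probe read for their gene, and 3 of these were above background on CDAHFD arrays and on 0 control arrays. The second Cdc6 probe was above background on 1 CDAHFD array. The Cdc45 probe was so on 2 CDAHFD arrays, 1 at 1 week and 1 at 2 weeks. The second Ccne1 probe was so on 3 CDAHFD arrays. No group was large enough for a check of outlying arrays, and 0 of 33 members had diet differences of opposite direction on all arrays of different weeks.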

How the results depend on the processing

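Of 26 alternatives, 23 to 25 were run for each member and week, and 26 of the 55 calls were kept in all of them, 4 of 18 at 1 week, 15 of 22 at 2 weeks and 7 of 15 at 6 weeks. The 4 at 1 week were Mcm3, Mcm4, Mcm5 and Mcm6. Members that rose at 1 week numbered 17, where 25.8% of all genes rose. With the percentile over all gene probes they numbered 9 (16.5% of all genes). With quantile normalization they numbered 9 (21.4% of all genes), and with normexp on the median signals 7 (10.8% of all genes). Past a 2-fold threshold they numbered 7. Members that rose at 6 weeks numbered 13, where 24.6% of all genes rose, and 6 past the 2-fold threshold. The share of all genes past that threshold was not computed. A larger difference at 2 weeks than at 1 week had 0 members, and 1 with only the arrays of the same slide. Leaving out 1 array gave 7 to 21 members that rose at 1 week, 15 to 24 at 2 weeks and 7 to 23 at 6 weeks. It gave 0 to 3 with a larger difference at 2 weeks than at 1 week, 0 to 1 with a smaller one at 6 than at 2 weeks, 0 to 2 with a larger and 0 to 3 with a smaller one at 6 weeks than at 1 week, and 0 to 6 that varied over weeks. Ccne1, Chaf1a and Mcm5 had the larger difference at 2 weeks, by 1.21, 1.51 and 1.65, without either CDAHFD array of 6 weeks. Without the second of them Ccne1 was smaller at 6 than at 2 weeks, by -2.32, and Ccne1, Gins1 and Prim1 were smaller at 6 weeks than at 1 week, by -1.09, -0.81 and -0.85, and without the first E2f2 and Lig1 were larger at 6 weeks than at 1 week, by 1.24 and 0.86. Mcm10 was smaller at 6 weeks than at 1 week with quantile normalization, by -0.96. Leaving out 1 array gave a median member difference of 0.54 to 0.60 at 1 week, 0.77 to 1.04 at 2 weeks and 0.16 to 0.93 at 6 weeks, and the other alternatives gave 0.52 to 0.85, 0.75 to 1.07 and 0.51 to 0.72. The lone array left in a group was assumed to vary like the other groups. The counts of week changes in fits without 1 array are not set beside the shares of all genes in those fits. Orc6 at 1 week turned to -0.043 against the control arrays of 2 and 6 weeks. The share of higher genes among all called genes was 63.2%, 60.9% and 60.5% at 1, 2 and 6 weeks. It was 36.1%, 39.3% and 38.1% with the percentile over all gene probes, 79.5%, 74.0% and 69.5% with median centring, 33.2%, 48.4% and 53.4% with normexp, and 43.7% at 1 week with no filter. With normexp the differences of Mcm2 at 2 and 6 weeks were 1.11 and 0.81 and those of Mcm5 2.33 and 1.53, past the threshold. Against the control arrays of 2 and 6 weeks, the differences at 1 week were 2.16 for Mcm2, 2.66 for Mcm5, 3.29 for Uhrf1 and 1.53 for Chaf1a. With the percentile over all gene probes, 6, 4 and 12 of the 47 other replication genes fell at 1, 2 and 6 weeks. In that setting 29.3%, 27.2% and 30.5% of all genes fell. With quantile normalization the median of those 47 genes at 6 weeks was -0.07. The cause of these changes was not tested. The replicate numbers did not pair the arrays (same-numbered deviations correlated at -0.05, 0.18 and 0.11 at 1, 2 and 6 weeks). With the replicate block 18, 22 and 14 members rose at 1, 2 and 6 weeks, where 25.7%, 23.1% and 24.8% of all genes rose. Slide as a random block was not run, since each week lies on 1 slide. Normexp on mean signals was not run, as that column was not used here. Whether genes near background depended more on the background correction was not tested, and the offset of normexp was not varied.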

Other observations

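Genes of thymidylate supply outside the 37 were looked at after their values were seen. Shmt1, the cytosolic enzyme that feeds one-carbon units to thymidylate synthesis, was at -1.05 and -1.19 on the CDAHFD arrays, against -0.29 and -0.39 on the control arrays, at 1 week. At 2 weeks it was at -1.40 and -1.45 on CDAHFD arrays, against -0.63 and -0.40 on control arrays, and at 6 weeks at -1.26 and -1.69 on CDAHFD arrays, against -0.58 and -0.31 on control arrays. Shmt1 fell at all weeks, by 0.91, 0.97 and 1.07 on the log2 scale (adjusted p = 0.003, 0.0012 and 4.82e-04). Dtymk and Dut, which work on either side of thymidylate, had differences of 0.01 and 0.08 at 2 weeks and did not pass (adjusted p = 0.808 and 0.573).

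Other G1 regulators moved beyond the 37 genes as well, also named after their values were seen. Ccnd1, the cyclin D of G1, rose by 2.01, 2.89 and 2.85 (SE 0.34 each), and the CDK inhibitor Cdkn1a rose by 1.76, 2.74 and 4.68 (SE 0.42 each). Rbl1, a pocket protein that binds E2F, rose by 2.64, 1.82 and 2.00 (SE 0.32 each). Tfdp2 fell at all weeks, by 0.66, 0.61 and 0.74.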
